A study of Homo sapiens with 16 samples.

Results

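The genes described here repair broken and crosslinked DNA by homologous recombination and by the Fanconi anaemia pathway, together with the kinases and sensors that report the damage and the mismatch repair genes MSH6 and PMS1. Members were taken by gene symbol from a list of 35 names, keeping for each symbol the row of highest mean and requiring a mean level of at least 1 FPKM over 16 libraries. This gave 34 members, out of 24293 loci in the table and 11647 loci of mean 1 FPKM or more. The list was chosen with earlier results of these data known. Contrasts of the members with all loci or with other lists are therefore descriptions, not tests. RBBP8, which starts end resection, is in the table only on a row joined with a microRNA gene and was left out. No listed gene with a row of its own fell below the minimum, and the members nearest above it were XRCC2, with a mean of 1.54 FPKM, and FANCE, with 1.94 FPKM. FPKM counts sequenced fragments per kilobase of transcript, scaled to the mapped fragments of the library, and so is a level per transcript length.

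The cells were HCC4006, a line of non-small cell lung cancer that carries an activating EGFR mutation. They were grown untreated for a day and then held for 24 hours in 1 of 4 conditions, with 4 libraries of polyA RNA from each. These were DMSO alone (called vehicle below), 100 nM gefitinib, 100 nM AZ1366, or both compounds at 100 nM each. Gefitinib inhibits the EGFR kinase. AZ1366 inhibits tankyrase, a poly-ADP-ribose polymerase that marks AXIN for destruction, and so restrains canonical Wnt signalling. Whether the 4 libraries of a condition are separate cultures is not stated in the labels. The p-values therefore measure only how these libraries spread, which may be technical. A single cell line was used, at 1 dose and 1 time, with no DNA-damaging agent.

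In homologous recombination a double-strand break is bound by the MRE11, RAD50 and NBN complex, its ends are resected to single strands, and BRCA1, PALB2 and BRCA2 prepare the strand for exchange with the matching sequence of the sister chromatid. In the Fanconi pathway a core complex attaches ubiquitin to the FANCD2 and FANCI pair where a replication fork meets an interstrand crosslink, and the lesion is then cut out and mended with the help of recombination. Because a sister chromatid is needed, recombination is used in S and G2 phase, and many of these genes are transcribed mostly in cycling cells.

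The start regions of a few members are shown because E2F factors, which turn on genes at entry into S phase, are known to bind near the starts of many replication and repair genes. RefSeq promoter windows on build GRCh38.p14, from 250 bases before to 50 bases after each annotated start, were matched by symbol for 30 of the 34 members. They were searched on both strands for 4 E2F-type words: TTTCCCGC, TTTCGCGC, TTTGCCGC and TTTGGCGC. At least 1 word was found in 6 of the 30 members (20%), against 4.0% of the 27305 gene symbols with windows and 3.3% of the 35116 windows. The 6 were EXO1, FANCA, FANCC, FANCD2, XRCC2 and MSH6. Here and for the other words below, the background was every gene with a window. It was not limited to loci of mean 1 FPKM or more, as the members were, so the sets are unlike. Stretches from 120 bases before to 30 bases after the start are printed 5′ to 3′ on the strand of the gene, with the E2F-type word, or its reverse complement, in capitals. FANCF, the member whose level was higher with both compounds, was chosen after values were seen and is set beside them. It is among the 24 members that hold no such word in their windows. FANCA and FANCC hold a word but are not printed.
EXO1 (chr1:241848084-241848233, plus strand): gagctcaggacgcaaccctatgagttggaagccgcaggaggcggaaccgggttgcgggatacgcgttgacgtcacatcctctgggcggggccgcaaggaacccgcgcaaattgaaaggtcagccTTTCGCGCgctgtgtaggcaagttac
FANCD2 (chr3:10026317-10026466, plus strand): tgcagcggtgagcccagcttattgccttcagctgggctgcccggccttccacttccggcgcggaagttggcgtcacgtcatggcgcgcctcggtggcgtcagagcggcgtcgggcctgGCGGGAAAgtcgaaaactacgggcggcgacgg
XRCC2 (chr7:152676112-152676261, minus strand): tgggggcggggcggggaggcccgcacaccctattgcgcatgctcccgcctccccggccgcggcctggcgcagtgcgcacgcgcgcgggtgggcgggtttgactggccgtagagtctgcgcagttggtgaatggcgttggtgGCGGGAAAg
MSH6 (chr2:47783025-47783174, plus strand): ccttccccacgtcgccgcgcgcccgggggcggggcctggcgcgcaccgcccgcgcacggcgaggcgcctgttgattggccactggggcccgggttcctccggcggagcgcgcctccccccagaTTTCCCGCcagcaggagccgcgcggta
FANCF (chr11:22625794-22625943, minus strand): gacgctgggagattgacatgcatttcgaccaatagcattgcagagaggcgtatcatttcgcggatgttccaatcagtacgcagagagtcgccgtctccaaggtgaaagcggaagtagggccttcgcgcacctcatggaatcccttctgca
The CCAAT word, bound by NF-Y, was in 17 of the 30 members (56.7%) against 39.7% of symbols, and the TTTGAA word, the cell cycle homology region of late cell cycle genes, in 4 (13.3%) against 18.2%. The 6 members with an E2F-type word had a median change of -1.02 with both compounds, on the log2 scale used below, and the 24 without one had -0.80. The 6 ran from -1.59 for EXO1 to -0.57 for FANCC, and the 24 from -1.75 for BRCA2 to 0.20 for FANCF. EXO1 has 2 annotated windows and MSH6 has 4, and only the window that holds the word is printed. A match is a description of letters in the window, not a bound site.

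Changes are differences of group means of log2(FPKM + 1), a scale that understates the change of low genes, and a gene was called changed at an adjusted p under 0.05 in limma, with Benjamini-Hochberg adjustment over all 11647 loci. Summed FPKM per library ran from 433357 to 478179. The read depth is unknown, because the files hold no counts. All 8 epithelial markers were high (EPCAM 211 to 305 FPKM), and their sum ran from 5339 to 6089 FPKM in vehicle, 4612 to 4986 with gefitinib, 3895 to 5159 with AZ1366 and 3902 to 4298 under both. The sum of 4 leukocyte markers ran from 34 to 38.1, 49.9 to 54.7, 39.4 to 45.5 and 57.8 to 63.9 FPKM in the same order, nearly all of it CD68, with PTPRC and CD3E near 0. The 3 fibroblast markers with a row summed to 1.63 to 2.80 FPKM, mostly COL1A1, and the 3 endothelial markers to 0.241 to 0.788 FPKM, mostly CDH5, with DCN and VWF near 0. These sums move with the groups, and their part in the repair gene results was not tested. AZ1366 replicate 1 stood apart from its group: 33 of the 34 members were above the AZ1366 mean in it, with a median excess of 0.13 on the log2 scale.

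Most of the repair genes fell with gefitinib, fewer were called lower with AZ1366, and nearly all fell with both compounds. With both compounds 32 of the 34 members fell against vehicle, against 49.4% of all loci called lower, and the median member change was -0.97 against -0.15 over all loci tested. In the same 32 genes every library with both compounds lay below every vehicle library, against 48.1% of loci. The exceptions were FANCF, which rose by 0.20 (29.9% of loci were called higher), and FANCL, at -0.15 with an adjusted p of 0.0637. BRCA2, BRCA1 and EXO1 had the largest changes with both compounds on this scale. In percent of the vehicle mean the lowest were BRCA2 (17.5%), XRCC2 (19.2%) and XRCC3 (26.8%). In bulk RNA, fewer cells that express these genes and less RNA of them per cell cannot be told apart.

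Gefitinib alone lowered 28 members and raised none, with 36.9% of all loci called lower, and the median member change was -0.48 against -0.06 over all loci. In 27 members the gefitinib and vehicle libraries did not overlap (35.7% of loci). The 6 genes that were not called were ATM, NBN, TP53BP1, BRIP1, FANCF and FANCL. AZ1366 alone lowered 19 members and raised FANCL, with 39.8% of loci called lower and 18.6% called higher, and the median was -0.21 against -0.10. In 18 members every AZ1366 library lay below every vehicle library (26.0% of loci). Without AZ1366 replicate 1 the AZ1366 comparison called 24 members lower and 1 higher. The share of all loci called in that fit is not given here, so this count has no background beside it.

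**Figure D1:**
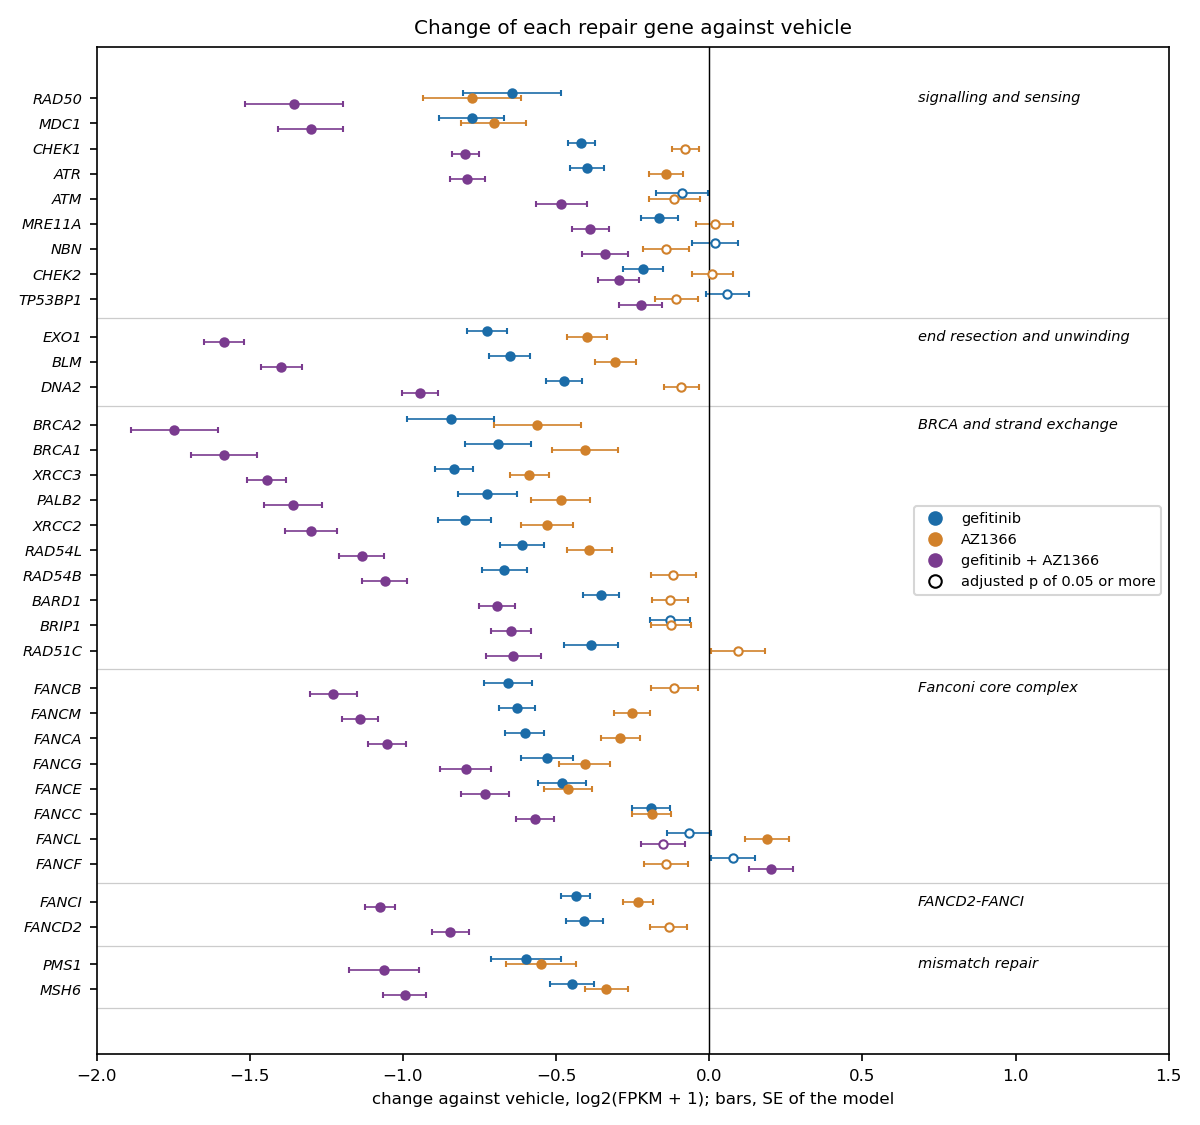
Change of each of the 34 repair genes against vehicle, on the log2(FPKM + 1) scale, for gefitinib (blue), AZ1366 (orange) and both (purple), with bars for the standard error of the model and open points for an adjusted p of 0.05 or more. The purple points lie farthest left in all roles, down to -1.75 for BRCA2, and only FANCF sits to the right of 0 with both compounds.

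Adding AZ1366 to gefitinib lowered 31 members further and raised none, with 37.2% of loci called lower, and the median was -0.46 against -0.10 over all loci. Adding gefitinib to AZ1366 lowered 32 and raised FANCF, with 35.7% of loci called lower and 26.9% higher, and the median was -0.69 against -0.05. In each of these comparisons 32 members had every library with both compounds below every library with the single compound, against 34.4% and 30.8% of loci. Gefitinib and AZ1366 also differed from each other: 21 members were lower with gefitinib and FANCF was higher, with 17.9% of loci called lower and 28.1% higher, and the median was -0.23 against 0.04. In 16 members every gefitinib library lay below every AZ1366 library (14.7% of loci). By role, all 3 resection genes, 8 of 10 strand exchange genes, both FANCD2 and FANCI, 4 of 8 core genes and 4 of 9 sensors were lower with gefitinib than with AZ1366. PALB2, among these, had an adjusted p of 0.0497 with overlapping groups and was called in 12 of 26 settings. In mismatch repair neither MSH6, at -0.11, nor PMS1, at -0.05, passed the test.

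The scaling of the libraries mattered for the level of these changes. Median-ratio scaling moved the median of all loci with both compounds from -0.15 to 0.01. Taken relative to the median of all loci, the member median was -0.82 as deposited, -0.82 with median-ratio scaling and -0.79 with quantile normalization. In a fit corrected for transcript length and GC content it was smaller, at -0.67. With quantile normalization 29 members were lower and 1 higher, against 41.4% of loci called lower and 39.1% higher. For AZ1366 alone the member median relative to all loci was -0.11 as deposited, -0.10 with median-ratio scaling and -0.07 with quantile normalization. Under these scalings the AZ1366 comparison called 17 members lower, with 2 higher by median-ratio scaling and 3 higher by quantile normalization, against backgrounds of 30.4% and 31.0% of loci called lower and 30.3% and 28.7% called higher. By quantile normalization the AZ1366 changes of BRCA1, EXO1 and FANCI were -0.26, -0.26 and -0.11, and the change of FANCF with both compounds was 0.40.

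**Figure D2:**
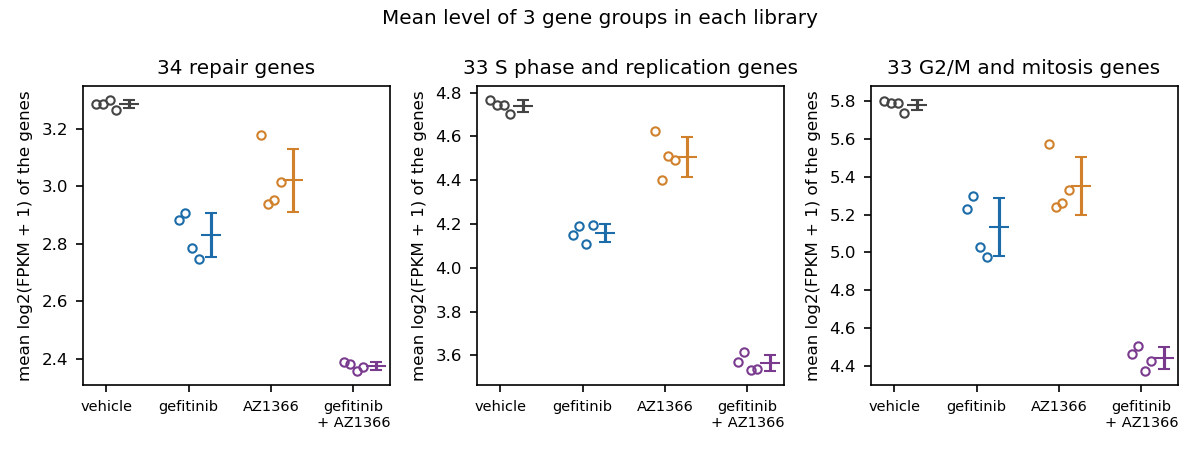
Mean log2(FPKM + 1) in each library (circles) of the 34 repair genes, of 33 S phase and replication genes and of 33 G2/M and mitosis genes, with the group mean and SD beside them. In each panel the vehicle libraries are highest, those with both compounds lowest, and AZ1366 replicate 1 lies above the other AZ1366 libraries.

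The mean level of the 34 members in a library was 3.29 ± 0.015 on the log2(FPKM + 1) scale in vehicle (SD, n = 4), 2.83 ± 0.077 with gefitinib, 3.02 ± 0.110 with AZ1366 and 2.38 ± 0.015 under both. The spread between libraries was thus wider under the single compounds than in vehicle or with both. Within the gefitinib group the deviation of a member from its group mean followed transcript length in opposite directions in 2 libraries, with Pearson's r of 0.631 in replicate 1 and -0.552 in replicate 4 across the 34 genes. In the AZ1366 group r was 0.424 in replicate 1 and -0.66 in replicate 3, with both compounds it ran from -0.177 to 0.373, and in the vehicle libraries from -0.137 to 0.086. These are correlations across genes, which are not independent replicates, and all points of a library share its fragments and depth. The part of these library differences in the results by gene was not tested beyond a fit corrected for length and GC content and fits without each library.

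Among the sensors and signalling kinases, 6 of 9 fell with gefitinib (36.9% of all loci), 3 with AZ1366 (39.8% of loci, so the share was no higher than the background) and all 9 with both (49.4%), where the median of the 9 was -0.48. The same shares of loci stand behind the counts by role that follow. RAD50, the long coiled-coil ATPase that tethers broken ends (chr5:131892615-131980313, hg19), had the largest change of the 9 with both compounds and with AZ1366 on the log2(FPKM + 1) scale, and MDC1 had the largest with gefitinib (-0.78). The RAD50 level in replicates 1 to 4 was 16.4, 16.1, 16.6 and 15.8 FPKM in vehicle, 13.0, 12.7, 8.59 and 7.02 with gefitinib, 12.9, 8.08, 7.29 and 8.87 with AZ1366, and 6.39, 5.99, 5.31 and 5.32 under both. All treated libraries lay below the vehicle libraries, the libraries with both compounds lay below all others, and the single-compound groups overlapped each other and were widely spread. The RAD50 change was -0.65 ± 0.16 (SE) with gefitinib (adjusted p = 0.00191), -0.78 with AZ1366 (0.000675) and -1.36 with both (4.51e-07). Its partners moved less. MRE11A, the nuclease of the complex, had a mean of 11.1 ± 0.575 FPKM (SD, n = 4) in vehicle, 9.82 ± 0.652 with gefitinib, 11.2 ± 0.487 with AZ1366 and 8.25 ± 0.518 under both. NBN, which recruits ATM, had means of 23.5, 23.9, 21.2 and 18.3 FPKM in the same order, and of these only the last passed the test against vehicle (-0.34, adjusted p = 0.000476). The gefitinib call of MRE11A, at -0.16, was lost without gefitinib replicate 4 (adjusted p = 0.0847), without vehicle replicate 3 (0.077) and under both scalings, and the NBN call with both compounds was lost by quantile normalization (0.0664).

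ATM, the kinase that answers double-strand breaks (chr11:108093558-108239826, hg19), stood in replicates 1 to 4 at 3.37, 3.52, 3.58 and 3.49 FPKM in vehicle, 3.65, 3.49, 3.10 and 2.72 with gefitinib, 3.91, 3.04, 2.56 and 3.20 with AZ1366, and 2.42, 2.12, 2.25 and 2.08 under both. Each single-compound group straddled the vehicle values, and the libraries with both compounds lay below every other library. The ATM change was -0.09 with gefitinib (adjusted p = 0.367), -0.11 with AZ1366 (0.251), and -0.48 with both, the only change that was called (4.42e-05). With the length and GC correction the change of ATM with both compounds was -0.27. Without AZ1366 replicate 1 the AZ1366 change was -0.19 and passed the test (adjusted p = 0.0266). ATR, the kinase of stalled forks, was lower with gefitinib, from 9.90 ± 0.445 FPKM in vehicle to 7.27 ± 0.448, and reached 5.31 ± 0.254 with both. Its AZ1366 call was weak (-0.14, adjusted p = 0.04), and by quantile normalization the change was 0.01 (adjusted p = 0.937).

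CHEK1, the checkpoint kinase below ATR, fell with gefitinib from 22.3 ± 0.938 to 16.4 ± 0.339 FPKM and with both to 12.4 ± 0.114, and was 21.1 ± 0.651 with AZ1366 (adjusted p = 0.139). Its row spans ACRV1 as well. CHEK2, the kinase below ATM, fell with gefitinib (-0.22) and with both (-0.30), and was 0.01 from vehicle with AZ1366 (adjusted p = 0.901). By quantile normalization the CHEK2 change with both compounds lost its call (-0.09, adjusted p = 0.19). MDC1, the scaffold at marked chromatin, was at 10.6 ± 1.08 FPKM in vehicle, 5.75 ± 0.43 with gefitinib, 6.19 ± 1.53 with AZ1366 and 3.69 ± 0.209 under both. TP53BP1, which shields ends from resection and so favours end joining, had the smallest change of the 9 with both compounds, with means of 7.09, 7.43, 6.53 and 5.93 FPKM in vehicle, gefitinib, AZ1366 and both. Against vehicle it passed the test only with both compounds (-0.22, adjusted p = 0.00755), and this call was lost under both scalings and turned to 0.04 (adjusted p = 0.445) in the fit corrected for length and GC content. The TP53BP1 row spans 5 other genes, MAP1A among them.

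The 3 genes of end resection and unwinding all fell with gefitinib and with both compounds. EXO1, the 5′ to 3′ exonuclease of long-range resection (chr1:242011492-242053241, hg19), whose start region is printed above, stood in replicates 1 to 4 at 21.5, 21.7, 21.7 and 21.4 FPKM in vehicle, 12.7, 14.1, 12.2 and 11.7 with gefitinib, 18.1, 15, 15.1 and 16.4 with AZ1366, and 6.72, 6.89, 6.52 and 6.0 under both. The 4 groups did not overlap, in the order vehicle, AZ1366, gefitinib, both. EXO1 changed by -0.73 ± 0.07 (SE) with gefitinib (adjusted p = 3.88e-08), -0.40 with AZ1366 (0.00011) and -1.59 with both (5.19e-13). BLM, the helicase that works with DNA2 in resection and dissolves joint molecules, had means of 8.47 ± 0.409, 5.04 ± 0.532, 6.66 ± 0.565 and 2.59 ± 0.0829 FPKM in vehicle, gefitinib, AZ1366 and both. DNA2, the flap nuclease, fell with gefitinib to 66.6% of its vehicle mean and with both to 42.7%, and was at 92.7% with AZ1366 (-0.09, adjusted p = 0.189). The row that joins RBBP8 to a microRNA gene had means of 17.4, 12.9, 12.6 and 8.03 FPKM in the same order of groups, and is given without a test.

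Of the 10 genes of the BRCA complexes and strand exchange, 9 fell with gefitinib, 6 with AZ1366 and 10 under both, where their median was -1.22. BRCA1, the ubiquitin ligase subunit that promotes resection and recruits PALB2 (chr17:41196311-41277500, hg19), stood in replicates 1 to 4 at 13.3, 11.4, 11.9 and 12.5 FPKM in vehicle, 8.69, 8.23, 6.65 and 5.66 with gefitinib, 11.0, 8.07, 7.85 and 9.41 with AZ1366, and 3.73, 3.21, 3.31 and 3.46 under both. Each treated group lay below vehicle, and the gefitinib and AZ1366 libraries overlapped. The mean was 59.5% of vehicle with gefitinib, 73.9% with AZ1366 and 27.9% under both. On the log2 scale the BRCA1 changes were -0.69 ± 0.11 (SE), -0.41 and -1.58 (adjusted p = 2.61e-05, 0.00406 and 3.58e-10). The difference between gefitinib and AZ1366, -0.28, had an adjusted p of 0.0389 that was lost without AZ1366 replicate 1 (0.107), AZ1366 replicate 4 (0.0897), gefitinib replicate 3 (0.1) or gefitinib replicate 4 (0.146).

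BRCA2 (chr13:32889616-32973809, hg19) acts on resected DNA to start strand exchange. On the log2(FPKM + 1) scale it had the largest change of all members with gefitinib and with both. With AZ1366, RAD50, MDC1 and XRCC3 changed more on that scale. In percent of the vehicle mean XRCC2 was lower than BRCA2 with gefitinib, at 42.4%. The BRCA2 level in replicates 1 to 4 was 5.14, 6.06, 5.85 and 5.70 FPKM in vehicle, 3.70, 3.22, 2.34 and 1.89 with gefitinib, 5.18, 3.02, 2.90 and 3.32 with AZ1366, and 1.16, 0.948, 1.07 and 0.808 under both. AZ1366 replicate 1 lay within the vehicle range, the gefitinib libraries lay below it, and the libraries with both compounds were the lowest 4. The mean was 49.0% of vehicle with gefitinib, 63.4% with AZ1366 and 17.5% under both, and the BRCA2 changes were -0.84 ± 0.14 (SE), -0.56 and -1.75 (adjusted p = 5.83e-05, 0.00301 and 3.88e-09). PALB2, the bridge between BRCA1 and BRCA2, fell to 57.9%, 69.8% and 34.6% of its vehicle mean of 13.5 ± 0.297 FPKM.

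BARD1, the partner of BRCA1 in the ligase, changed less, with means of 10.4 ± 0.592, 7.94 ± 0.498, 9.45 ± 0.532 and 6.05 ± 0.296 FPKM in vehicle, gefitinib, AZ1366 and both, and its AZ1366 change of -0.13 did not pass (adjusted p = 0.0703). BRIP1, the helicase bound by BRCA1, fell with both compounds, to 54.1% of vehicle, and stood at 89.3% with gefitinib (adjusted p = 0.0948) and 89.6% with AZ1366 (0.106). XRCC2, XRCC3 and RAD51C act together in strand exchange. XRCC2 fell from 2.80 ± 0.299 FPKM to 1.19 ± 0.213 with gefitinib, 1.64 ± 0.339 with AZ1366 and 0.538 ± 0.0413 under both. XRCC3 fell from 6.37 ± 0.257 FPKM to 3.14 ± 0.241, 3.91 ± 0.396 and 1.71 ± 0.116, on a row that also spans KLC1. RAD51C was the most abundant of the 3, at 28.3 ± 4.04 FPKM in vehicle, and fell with gefitinib to 21.3 ± 1.19 and with both to 17.7 ± 1.08, while it was 30.1 ± 3.18 with AZ1366 (0.09, adjusted p = 0.372). Its further fall from gefitinib to both, -0.25, was lost without gefitinib replicate 2 (adjusted p = 0.0675), gefitinib replicate 4 (0.0538) or replicate 1 of both compounds (0.074), and under both scalings. The motor proteins RAD54L and RAD54B, which drive strand invasion, fell to 58.8% and 57.5% of vehicle with gefitinib and to 35.2% and 40.5% with both. RAD54L was also lower with AZ1366 (71.6% of vehicle), and RAD54B was at 90.7% (adjusted p = 0.174). The RAD54L row spans LRRC41.

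**Figure D3:**
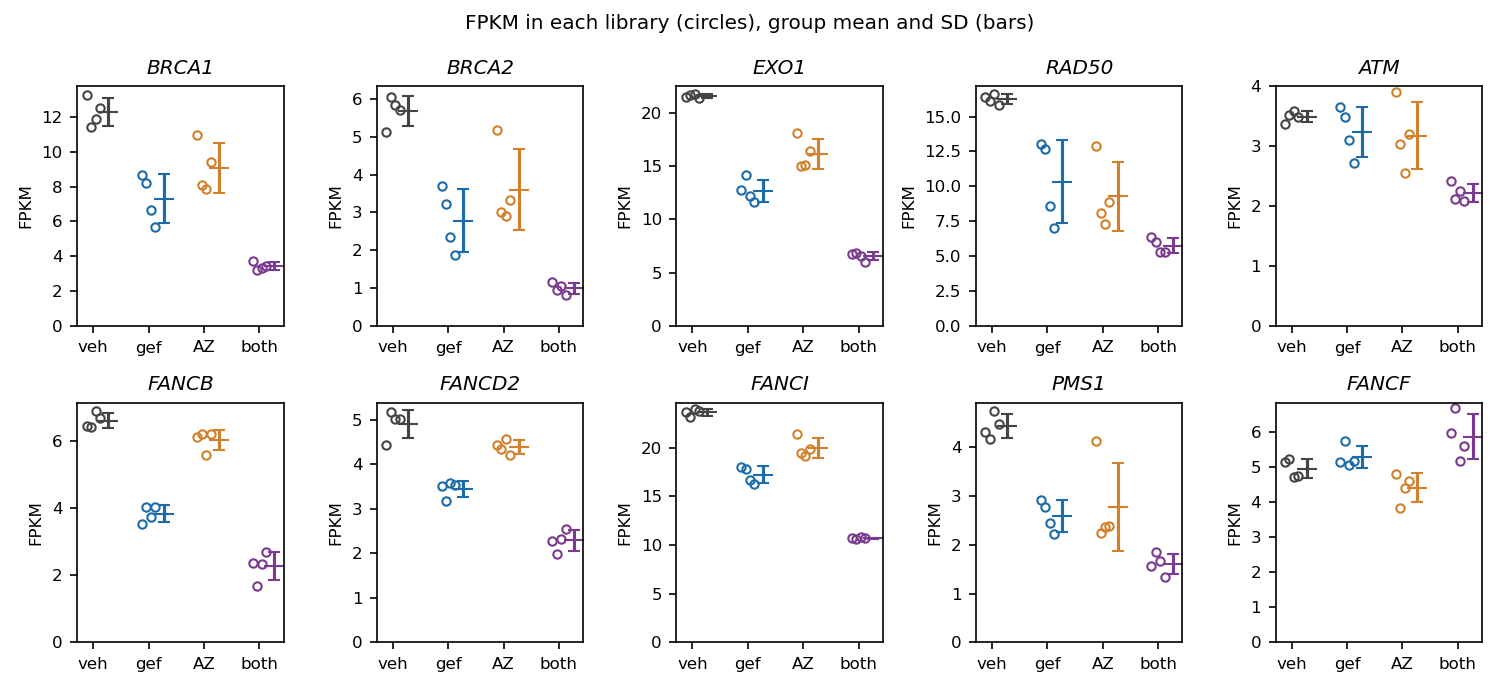
FPKM of 10 repair genes in each of the 4 libraries per group (circles), with group means and SD (bars), for vehicle (veh), gefitinib (gef), AZ1366 (AZ) and both. All vertical axes start at 0. BRCA1, BRCA2, EXO1 and RAD50 step down from vehicle through the single compounds to both, ATM lies below all other libraries with both compounds, and FANCF with both compounds reaches above vehicle.

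In the Fanconi core complex, which holds the ubiquitin ligase of the pathway, 6 of 8 genes fell with gefitinib, 5 fell and 1 rose with AZ1366, and 6 fell and 1 rose with both, where the median was -0.76. FANCB (chrX:14861528-14891184, hg19) forms the catalytic part with FANCL and FAAP100. On the log2(FPKM + 1) scale FANCB had the largest change of the 8 with gefitinib and with both. Its level in replicates 1 to 4 was 6.45, 6.41, 6.88 and 6.67 FPKM in vehicle, 3.52, 4.02, 3.72 and 4.04 with gefitinib, 6.13, 6.21, 5.58 and 6.21 with AZ1366, and 2.36, 1.68, 2.34 and 2.70 under both. The groups did not overlap, although the AZ1366 libraries lay only just under vehicle. FANCB changed by -0.66 ± 0.08 (SE) with gefitinib (adjusted p = 1.13e-06) and -1.23 with both (1.35e-10), and its AZ1366 change of -0.11 was not called (0.213). FANCM, the translocase that anchors the complex to DNA, fell to 56.7%, 80.4% and 32.9% of vehicle with gefitinib, AZ1366 and both. In percent of vehicle FANCB was less changed, at 57.9%, 91.3% and 34.4% in the same order. FANCA, a scaffold of the complex, fell to 59.3%, 78.4% and 38.4%, on a row that spans ZNF276 and 2 other genes, and the AZ1366 call was lost with the length and GC correction (adjusted p = 0.156).

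FANCG, which binds FANCA, had means of 14.2 ± 1.24, 9.55 ± 0.846, 10.5 ± 1.42 and 7.77 ± 0.546 FPKM in vehicle, gefitinib, AZ1366 and both. FANCE, which contacts FANCD2, had means of 2.86 ± 0.224, 1.77 ± 0.185, 1.81 ± 0.34 and 1.32 ± 0.156 FPKM. Both fell in all 3 comparisons with vehicle, and FANCE with gefitinib differed from FANCE with AZ1366 by -0.02 ± 0.08 (SE, adjusted p = 0.864). FANCC changed by -0.19 with either compound alone and by -0.57 with both. The single-compound calls of FANCC did not hold under all alternatives. The gefitinib call was lost without vehicle replicate 1 (adjusted p = 0.053) and with the length and GC correction (0.092), and the AZ1366 call without vehicle replicate 1 (0.0618) or AZ1366 replicate 4 (0.0536) and under both scalings.

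FANCL and FANCF did not follow the other core genes. FANCL, the RING subunit that attaches the ubiquitin, had means of 16.1 ± 1.55, 15.3 ± 0.332, 18.6 ± 2.04 and 14.4 ± 0.361 FPKM in vehicle, gefitinib, AZ1366 and both. Its rise of 0.19 with AZ1366 had an adjusted p of 0.0321 with overlapping groups, and the call was lost when any of AZ1366 replicates 2, 3 and 4 or vehicle replicates 1 and 4 was left out (adjusted p from 0.0553 to 0.115). With the length and GC correction the AZ1366 change of FANCL was -0.10 (adjusted p = 0.0908) and its change with both compounds, -0.49, was called. The FANCL row also spans VRK2. FANCF, an adaptor subunit encoded by a single exon (chr11:22644078-22647387, hg19), was chosen for its library values after they were seen. It stood in replicates 1 to 4 at 5.14, 5.24, 4.72 and 4.76 FPKM in vehicle, 5.15, 5.77, 5.06 and 5.20 with gefitinib, 4.81, 3.84, 4.42 and 4.6 with AZ1366, and 5.98, 6.71, 5.19 and 5.6 under both. The libraries with both compounds overlapped vehicle at the lower end and lay above all AZ1366 libraries. FANCF rose by 0.20 with both (adjusted p = 0.0163), a call lost without replicate 2 of that group (0.14, adjusted p = 0.0732), and was 0.34 higher with both than with AZ1366 (0.000496).

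FANCD2 and FANCI, the pair that receives the ubiquitin, both fell with gefitinib and with both compounds, and FANCI also fell with AZ1366. FANCI (chr15:89787193-89878026, hg19, on a row that spans POLG) stood in replicates 1 to 4 at 23.6, 23.2, 24.0 and 23.7 FPKM in vehicle, 18.1, 17.9, 16.7 and 16.3 with gefitinib, 21.4, 19.4, 19.1 and 19.9 with AZ1366, and 10.7, 10.6, 10.8 and 10.7 under both. The groups were separate and the libraries with both compounds nearly equal. FANCI changed by -0.44 ± 0.05 (SE), -0.23 and -1.07 with gefitinib, AZ1366 and both (adjusted p = 4.99e-07, 0.000694 and 1.53e-12). FANCD2 (chr3:10068112-10149915, hg19, on a row that spans C3orf24) stood at 4.45, 5.17, 5.01 and 5.02 FPKM in vehicle, 3.51, 3.19, 3.59 and 3.54 with gefitinib, 4.43, 4.35, 4.58 and 4.21 with AZ1366, and 2.28, 2.0, 2.33 and 2.56 under both. AZ1366 overlapped vehicle, and the other groups were separate. FANCD2 changed by -0.41 ± 0.06 (SE) with gefitinib (adjusted p = 1.38e-05) and -0.85 with both (6.15e-10), and its AZ1366 change of -0.13 had an adjusted p of 0.0665. Without vehicle replicate 1 that change was -0.17 and called (adjusted p = 0.0275).

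Both mismatch repair members fell in every comparison with vehicle. PMS1, a MutL-type mismatch repair gene (chr2:190634992-190742355, hg19, on a row that spans ORMDL1), stood in replicates 1 to 4 at 4.32, 4.17, 4.75 and 4.49 FPKM in vehicle, 2.93, 2.78, 2.45 and 2.22 with gefitinib, 4.14, 2.24, 2.37 and 2.38 with AZ1366, and 1.56, 1.86, 1.66 and 1.35 under both. AZ1366 replicate 1 lay just under vehicle and far above the other AZ1366 libraries. The PMS1 changes were -0.60 ± 0.11 (SE), -0.55 and -1.06 (adjusted p = 0.000209, 0.000767 and 1.57e-07). MSH6, which helps recognise mispaired bases, was the most abundant member in vehicle, with means of 34.8 ± 1.13, 25.3 ± 2.05, 27.5 ± 3.18 and 17 ± 0.803 FPKM in vehicle, gefitinib, AZ1366 and both, on a row that spans FBXO11.

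The design also allows a test of whether the change with both compounds differs from the sum of the single changes on the log2 scale. The interaction was below 0 in 27 of 34 members, with a median of -0.23 against -0.00 over all loci, and it was called below 0 in 7 members and above 0 in none, against 1.49% and 0.326% of loci. The 7 were EXO1 (-0.46 ± 0.09 SE, adjusted p = 0.0157), BLM (-0.44, 0.0232), FANCB (-0.46, 0.0395), FANCI (-0.41, 0.00571), BRIP1 (-0.40, 0.0343), DNA2 (-0.38, 0.0234) and CHEK1 (-0.30, 0.0197). All 3 genes placed under end resection and unwinding were among them. MRE11A, NBN and RAD50, placed here with the sensors, were not called (-0.24, -0.22 and 0.06, adjusted p = 0.179, 0.362 and 0.916). BRCA1 had an interaction of -0.49 that did not pass (adjusted p = 0.132). FANCE, MDC1, FANCG, PMS1, RAD50 and XRCC2 lay above or near the sum, at 0.21, 0.18, 0.14, 0.09, 0.06 and 0.03. Over the 25 settings tried, the XRCC2 interaction ran from -0.25 to 0.11 and that of BRCA2 from -0.68 to -0.15. Neither was called in any of them. FANCF had the highest value, 0.26 (adjusted p = 0.241).

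EXO1 and FANCI were the only members whose interaction was called under every alternative tried. The count was 2 without vehicle replicate 4, 3 without gefitinib replicate 1, 2 or 3, without AZ1366 replicate 4 or without replicate 1 of both compounds, and 4 without vehicle replicate 1 or replicate 2 of both compounds. The median of -0.23 over the members stayed at -0.23 and -0.24 with quantile normalization and median-ratio scaling and was -0.16 with the length and GC correction.

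**Figure D4:**
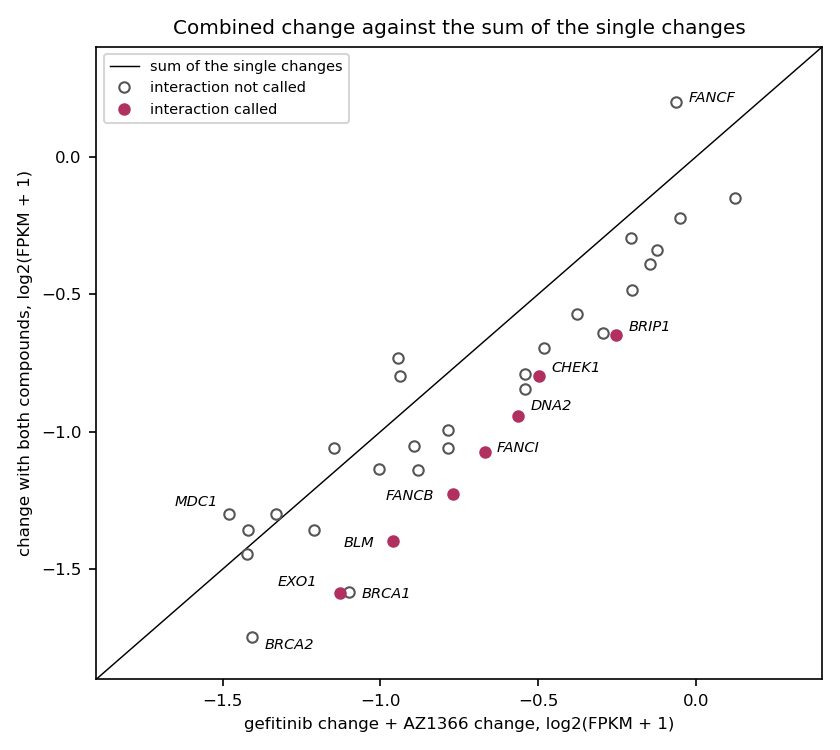
For each of the 34 repair genes, the change with both compounds (vertical) against the sum of the changes with gefitinib and with AZ1366 (horizontal), both on the log2(FPKM + 1) scale, with the line of equality. Most genes lie below the line, and the 7 filled points had an interaction with an adjusted p under 0.05.

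The order of the member changes was set side by side between comparisons that share no library. Across the 34 genes the change with gefitinib against vehicle and the change on adding gefitinib to AZ1366 had Pearson's r of 0.798 and Spearman's rho of 0.793. The change with AZ1366 against vehicle and the change on adding AZ1366 to gefitinib had r of 0.599 and rho of 0.608. These describe the genes and carry no test. The change with both compounds against vehicle was little related to transcript length (r = -0.176) or mean level (r = 0.171) over the members. The change on adding AZ1366 to gefitinib was more related to transcript length, with r of -0.404 and rho of -0.375.

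FPKM is per length, so the levels of partners that act together were compared within each library, as a ratio free of library scaling. Such a ratio is not free of the length-related library differences described above, because partners differ in length. The BRCA2 transcript, for example, has 10984 bases and that of PALB2 has 4003. The part of length in the ratios was not tested. BRCA1 to BARD1 was 1.29, 1.04, 1.11 and 1.3 in the vehicle libraries and 0.653, 0.499, 0.551 and 0.572 with both compounds, a difference of -1.06 on the log2 scale, with no overlap. RAD50 to MRE11A was below every vehicle library with all 3 treatments, at log2 differences of -0.52 with gefitinib, -0.86 with AZ1366 and -1.07 with both. BRCA2 to PALB2 was 0.376, 0.441, 0.437 and 0.435 in vehicle and 0.245, 0.173, 0.268 and 0.180 with both, a log2 difference of -0.99, which was -0.39 when 1 FPKM was added to each level. FANCD2 to FANCI stayed near 0.2 throughout, with log2 differences of -0.05, 0.08 and 0.04 (exact p = 0.629, 0.314 and 0.657). Each of the 5 separated differences had an exact two-sided permutation p of 0.0286, the smallest that 70 assignments of 4 against 4 libraries allow, and an adjusted p of 0.0686 over 12 tests, so none passed after adjustment.

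**Figure D5:**
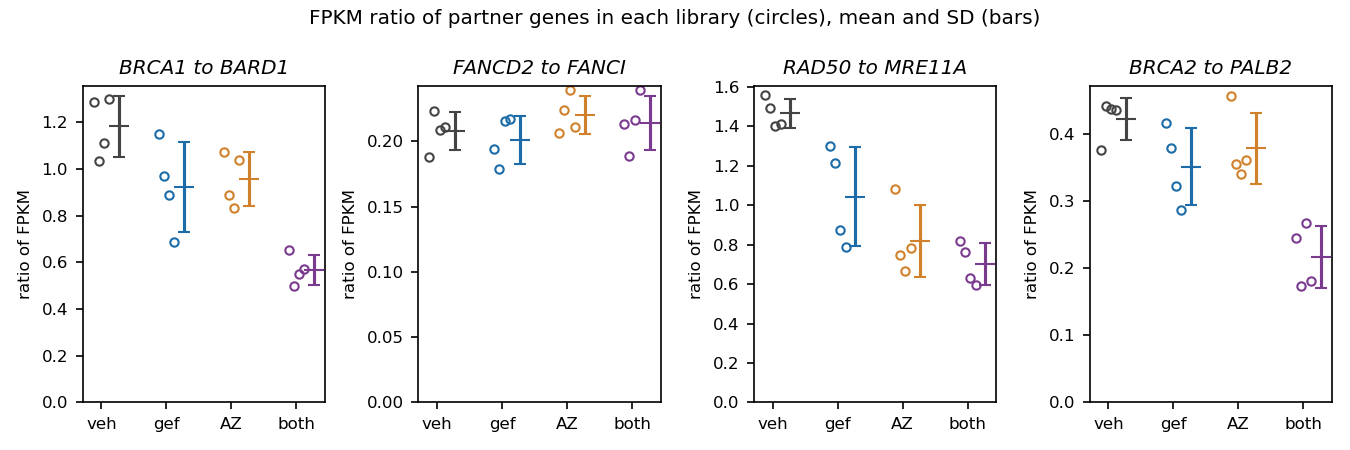
Ratio of the FPKM of partner genes in each library (circles), with the mean and SD of the group (bars), for vehicle, gefitinib, AZ1366 and both, on axes that start at 0. BRCA1 to BARD1, RAD50 to MRE11A and BRCA2 to PALB2 are lower with both compounds than in any vehicle library, and FANCD2 to FANCI overlaps in all groups.

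Beyond the members, 59 other genes of recombination and the Fanconi pathway were tested. With both compounds 46 fell and 8 rose, with a median of -0.44, against 39 and 7 with gefitinib and 37 and 7 with AZ1366, beside 49.4%, 36.9% and 39.8% of all loci called lower. By quantile normalization the counts were 37 and 9 with both (median -0.32) and 24 and 13 with AZ1366, and by median-ratio scaling 39 and 9 (median -0.28) and 24 and 11. The most changed were CLSPN, the adaptor through which ATR activates CHEK1, RIF1, a partner of TP53BP1, and USP1, which removes ubiquitin from FANCD2. USP1 went from 45.4 ± 2.41 FPKM in vehicle to 28.4 ± 4.75, 31.4 ± 4.73 and 15.1 ± 1.31 with gefitinib, AZ1366 and both. UBE2T, the enzyme that hands ubiquitin to FANCL, fell with gefitinib from 38.5 ± 3.25 to 25.8 ± 1.85 FPKM and with both to 20.3 ± 2.18, and was 42.1 ± 3.88 with AZ1366 (adjusted p = 0.217).

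With both compounds the lists of other repair routes had medians closer to 0 than the members. The 59 other genes of recombination and the Fanconi pathway, at -0.44, were also closer to 0. Members and lists were chosen with earlier results of these data known, so this contrast is a description, not a test. Of 11 end joining genes 7 fell and 1 rose with both compounds, with a median of -0.25 that was -0.44 by quantile normalization and -0.08 by median-ratio scaling, and the largest changes were -1.44 for PRKDC, the DNA-dependent kinase, and -1.22 for PARP1, which senses strand breaks. All 5 other mismatch repair genes fell with both, with a median of -0.51 (-0.31 by quantile normalization). Of 23 excision repair genes 14 fell and 3 rose, with a median of -0.31, beside 49.4% of loci lower and 29.9% higher. Under each of the other scalings 12 fell and 7 rose, with medians of -0.16 and -0.13. FEN1, the flap endonuclease that is also used in replication, fell by 1.33.

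Genes of the cell cycle moved with the repair genes. All 33 S phase and replication genes fell with gefitinib and with both, and 20 fell with AZ1366, with medians of -0.55, -1.14 and -0.23. Of 33 G2/M and mitosis genes 32 fell with gefitinib, 33 with both, and 24 fell and 2 rose with AZ1366, with medians of -0.66, -1.38 and -0.47. MKI67, a mark of cycling cells, went from 26.3 ± 1.83 FPKM in vehicle to 11.0 ± 2.27, 13.6 ± 5.18 and 4.87 ± 0.516 with gefitinib, AZ1366 and both, and E2F1 from 10.2 ± 0.928 to 6.43 ± 0.646, 7.53 ± 1.0 and 3.42 ± 0.347. PCNA, the replication clamp, was 169 ± 15.8, 139 ± 12.2, 197 ± 37.0 and 104 ± 4.08 FPKM, and its AZ1366 change did not pass (0.21, adjusted p = 0.114). MCM10, a replication factor, and UHRF1, which keeps DNA methylation through replication, changed by -2.20 and -2.39 with both. On the log2(FPKM + 1) scale, which understates the change of low genes, this was more than any of the repair genes. From vehicle to both, mean FPKM went from 13.3 to 2.11 for MCM10, 40.5 to 6.95 for UHRF1 and 5.69 to 0.995 for BRCA2. The S phase list held 17 genes with an interaction called below 0 (median -0.35) and the G2/M list 8 (median -0.25). The mean level of the S phase list in a library was 4.74 ± 0.0272 in vehicle and 4.16 ± 0.0413, 4.51 ± 0.0911 and 3.56 ± 0.0373 with gefitinib, AZ1366 and both on the log2(FPKM + 1) scale, the same order of groups as for the repair genes. The part of these genes, and of the share of cycling cells, in the changes of the repair genes was not tested.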

How the data were processed

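The authors deposited 1 table of FPKM values per locus for 16 libraries of HCC4006 polyA RNA. The build was hg19 and the tools included Cufflinks 1.3.0, Cuffdiff and TopHat 1.4.1, per the submitters' processing notes. Their roles, the strand setting and the read depth are not given in the sources used here. Loci were joined by gene symbol, and 10 member rows share their interval with other genes, whose reads may not have been told apart. MDC1 has 8 rows, of which 7 are at 0.

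Values were tested as log2(FPKM + 1) with limma 3.58.1 in R 4.3.3 (empirical Bayes with a trend), on loci of mean FPKM 1 or more, with a factor of 4 groups of 4 libraries, two-sided, adjusted by Benjamini-Hochberg over 11647 loci at 0.05. Partner ratios used exact permutation tests. No pair of libraries held identical values. The length and GC correction used GENCODE transcripts, with values for 99.0% of loci tested.

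Members and lists were chosen with earlier results of these data known. All members may be named. Values in every library are given for the member with the largest change in each role, for BRCA1, FANCD2 and ATM, and, after seeing values, for FANCF. Of the other lists, UBE2T, USP1, MKI67, PCNA, E2F1 and up to 3 of the most changed genes per list are named by the rule. Some genes that the rule names are not reported here. Promoter windows for RAD54B, NBN, FANCI and DNA2 were not used here. Alternatives were other pseudocounts, filters and scalings, no trend, only the libraries compared, a replicate block, and leaving out each library.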

Additional observations from a re-analysis of the deposited data

Results flagged for a closer look

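Among 136 groups of 4 libraries (34 members in 4 conditions), 3 held a library far from the other 3, 2.21%, and chance gives about 1 in 20. The groups share the same 16 libraries and are not independent, so these shares are no test of whether a library stood apart. AZ1366 replicate 1 was above its group mean in 33 of the 34 members. The 3 flagged groups were all from AZ1366. PMS1 was at 4.14 FPKM in AZ1366 replicate 1 against 2.24 to 2.38 in the others, FANCC at 5.17 in the same library against 4.24 to 4.33, and FANCB at 5.58 in AZ1366 replicate 3 against 6.13 to 6.21.

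The effect of AZ1366 differed with and without gefitinib in 7 members, by the limma interaction term: EXO1 -0.46, DNA2 -0.38, CHEK1 -0.30, FANCI -0.41, BLM -0.44, BRIP1 -0.40 and FANCB -0.46 on the log2(FPKM + 1) scale.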

How the results depend on the processing

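Of 6056 values of single members recomputed under the alternatives, 5863 kept their side of the threshold, 125 lost a call, 65 gained one and 3 called changes turned. Of the 5863, 66 lay on the other side of 0 without being called either way. The 3 that turned were ATR with AZ1366 by quantile normalization (0.006), and, with the length and GC correction, FANCL with AZ1366 (-0.0953) and TP53BP1 with both compounds (0.0399), and the cause was not tested. Restricting the test to loci of mean FPKM 5 or more left 20 members and called 16 with gefitinib, 11 with AZ1366, 19 with both, 17 for both against gefitinib, 19 for both against AZ1366, 13 for gefitinib against AZ1366 and 4 for the interaction. Fewer members were tested there, and PALB2 also lost its call between gefitinib and AZ1366 (adjusted p = 0.0513). Leaving out each library in turn, the interaction count ran from 2 to 8. With 1 FPKM added, the FANCD2 to FANCI ratio was 0.23 (log2) higher with both compounds (exact p = 0.0286). Leaving out vehicle 1 and AZ1366 1 together, chosen after seeing the data, gave 27 calls for AZ1366. The shares of all loci called in the fits without libraries, with the higher filter or with the replicate block are not given here. The member counts of those fits therefore have no background beside them.

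The replicate numbers were not taken as pairs, because the labels do not say what a number marks. Of 24 same-numbered pairs, 16 had deviations with r over 0.1 (range -0.447 to 0.539), and 15 of 48 best matches fell on the own number. By number, r ran from 0.207 to 0.539 for replicate 1 and -0.447 to 0.29 for replicate 2. It ran from 0.132 to 0.292 for replicate 3 and 0.009 to 0.274 for replicate 4. Some structure shared by number is therefore possible. With the replicate block, 28, 20, 34, 31, 33 and 23 members were called in the 6 group comparisons as ordered above and 7 for the interaction. Depth is unknown, so the precision of low genes such as XRCC2 cannot be stated.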
